A study of Homo sapiens with 8 samples.

Results

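Genes of polyamine synthesis, breakdown and antizyme control were followed across T3M4 cells, an established human pancreatic cancer line, in which METTL13, the methyltransferase of the elongation factor eEF1A, had been targeted. The 9 genes were chosen by symbol and were matched exactly to the gene symbols of the count table: ODC1, AMD1, SRM, SMS, SAT1, SMOX, AZIN1, OAZ1 and OAZ2. Rows were found for 7 of the 9 among 14668 symbols, while OAZ1 and OAZ2 had no row and were not analysed here. On GRCh38 (RefSeq) the genes with a row are ODC1 at chr2:10439968-10448327, AMD1 at chr6:110814617-110895713, SRM at chr1:11054589-11060018, SMS at chrX:21940709-21994837, SAT1 at chrX:23783173-23786210, SMOX at chr20:4148828-4187727 and AZIN1 at chr8:102826302-102864200. The results therefore cover the enzymes and the antizyme inhibitor, not the antizymes with their frameshift. Cells of both arms were T3M4, carrying either a non-targeting guide (sgControl) or a guide against METTL13 (sgMETTL13). All were starved of serum for 18 h and given 10% FBS for 2 h before lysis. Lysates were used for RNA-seq of poly(A) RNA and for ribosome profiling, which reads the mRNA fragments protected by ribosomes (footprints), with 2 libraries in each of 4 groups and 8 in all. One guide per arm is named, and whether the cells were a pool or a clone, or the replicates separate cultures, is not stated, and the tests can speak only for the variation among these libraries, which may be technical.

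Polyamines (putrescine, spermidine and spermine) are small cations needed for growth and for translation, and proliferating tumour cells keep their synthesis high. Ornithine decarboxylase (ODC1) makes putrescine, S-adenosylmethionine decarboxylase (AMD1) supplies the aminopropyl donor, and spermidine synthase (SRM) and spermine synthase (SMS) extend the chain. SAT1 acetylates polyamines for breakdown or export, and SMOX oxidises spermine back to spermidine. Antizymes bind ODC1 and send it to the proteasome, and their mRNAs need a polyamine-stimulated frameshift, while AZIN1, an inactive relative of ODC1, binds antizyme and so spares ODC1. Translation of several of these mRNAs is known to respond to polyamines, through upstream reading frames in AMD1 and AZIN1 among others.

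The AMD1 frame is short enough to be read from the start of the transcript, and it is shown because AMD1 had the fewest footprints per mRNA of the 7 genes in sgControl. In the RefSeq start windows (GRCh38.p14, 250 bases before to 50 after a start), 2 of 3 AMD1 starts held a complete frame from ATG to an in-frame stop within the first 50 bases, beginning at base 12 or 13 of the transcript. These 2 starts are neighbours, with windows from chr6:110874534 and chr6:110874535, and hold the same frame. The third, with a window from chr6:110814367, held none. The frame lies in the 5′ untranslated part of AMD1 at chr6:110874796-110874816 on the plus strand. The frame, with its start and stop codons, is in capitals, with 4 bases on either side.
AMD1 upstream frame: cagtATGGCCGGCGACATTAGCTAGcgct
The frame is 21 bases long, with 6 codons before the stop. A complete frame of this kind (ATG, at least 1 further codon, then TAA, TAG or TGA in frame, read on the transcript strand) was found in 8.80% of the 35116 RefSeq starts. Of the 9 genes 7 had an entry (AMD1, OAZ1, OAZ2, ODC1, SAT1, SMS and SRM), and AMD1 was the 1 that held such a frame. This is a count by gene, while the share above is over single starts. AZIN1 and SMOX had no entry, so neither was searched for the frame or for the letters CACGTG below. A window of 50 bases does not reach frames that lie further down a leader.

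ODC1 and SRM, which moved in opposite directions in footprints, both had the letters CACGTG in a start window. This palindrome, the E-box that MYC and MAX bind, reads the same on both strands and occurred in 7.26% of all starts. That share is over single start windows. Of the 7 genes with an entry 2 held the letters in a window, a count by gene that is not set against it. The window of the outer ODC1 start held none. The palindrome is in capitals below, in the minus-strand sequence of SRM at chr1:11060200-11060229 and of the inner ODC1 start at chr2:10448024-10448053 and chr2:10447990-10448019.
SRM: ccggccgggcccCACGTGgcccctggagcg
ODC1 before the inner start: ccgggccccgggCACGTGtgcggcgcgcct
ODC1 after the inner start: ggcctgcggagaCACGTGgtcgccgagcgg
The SRM letters begin 199 bases before the start, and those of ODC1 begin 29 bases before and at base 6 after the inner start. These matches describe the sequence, and binding was not measured here.

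RNA libraries held 20860953 to 48353722 counts each and footprint libraries 6063885 to 9837253. The targeted gene METTL13 read 65.2 and 57.8 CPM (counts relative to library size, with TMM scaling) in sgControl footprints and 20.1 and 26.2 CPM in sgMETTL13. One library pair stood apart: replicate-to-replicate log2 differences had an SD over genes of 0.914 for sgMETTL13 RNA and of 0.304 to 0.383 for the other groups. For the 7 genes, mRNA and efficiency log2 fold changes whose sign or call turns without 1 of those libraries are given both ways. Such fits leave 1 sgMETTL13 RNA library, so their calls are not given gene by gene. Of 6 markers of pancreatic cancer epithelium all were present, summing to 1640 to 1739 CPM in footprints. The fibroblast list (6 genes, 5 with a row) summed to 21.6 to 25.2 CPM there, nearly all COL1A1. The leukocyte list (5 genes, 3 with a row) summed to at most 1.87 CPM in footprints and to 20.6 to 49.3 CPM in RNA, nearly all CD68, with PTPRC at 0 in all but 1 footprint library.

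AMD1, SRM and ODC1 had few footprints for their mRNA in both control pairs. The ratio of footprint CPM to mRNA CPM was taken between same-numbered libraries and ranked among 10446 genes measured in both assays. It is a description with no test, and it also depends on how much of each transcript is coding. AMD1 stood at percentiles 4.54 and 2.93 in the sgControl pairs, with ratios of 0.0827 and 0.0517 that lay 10.4-fold and 16.7-fold below the median gene. SRM stood at percentiles 11.1 and 8.70, with ratios of 0.185 and 0.125. ODC1 followed at percentiles 16.4 and 21.8, with ratios of 0.256 and 0.307. No percentile of one of these 3 genes in sgControl fell among those of the next. With no filter on low counts, which lets genes with few footprints into the ranking, their mean control percentiles were 11.7 for AMD1, 18.3 for SRM and 27.0 for ODC1, in place of 3.74, 9.92 and 19.1. The other 4 genes lay near the middle, each overlapping its neighbour in this order: SMOX at 39.8 and 43.9, SMS at 42.3 and 45.0, AZIN1 at 49.5 and 42.9, and SAT1 at 54.3 and 49.3.

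The low place of AMD1 and SRM held in sgMETTL13. AMD1 stood at percentiles 0.876 and 6.70 there and SRM at 11.6 and 6.54, so both lay at or below 11.6 in all 4 pairs. ODC1 stood at 22.5 and 25.9. AZIN1 went from percentile 27.1 in sgMETTL13 replicate 1 to 66.6 in replicate 2, and SMOX from 38.4 to 22.9. RefSeq names 4 pseudogenes of AMD1, 3 of SRM and 1 each of ODC1 and SMS, whose copies can take or lose short reads, and the part this has in the ratios was not tested. Whether footprints on the upstream frame entered the AMD1 count is not given in the sources used here.

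**Figure D1:**
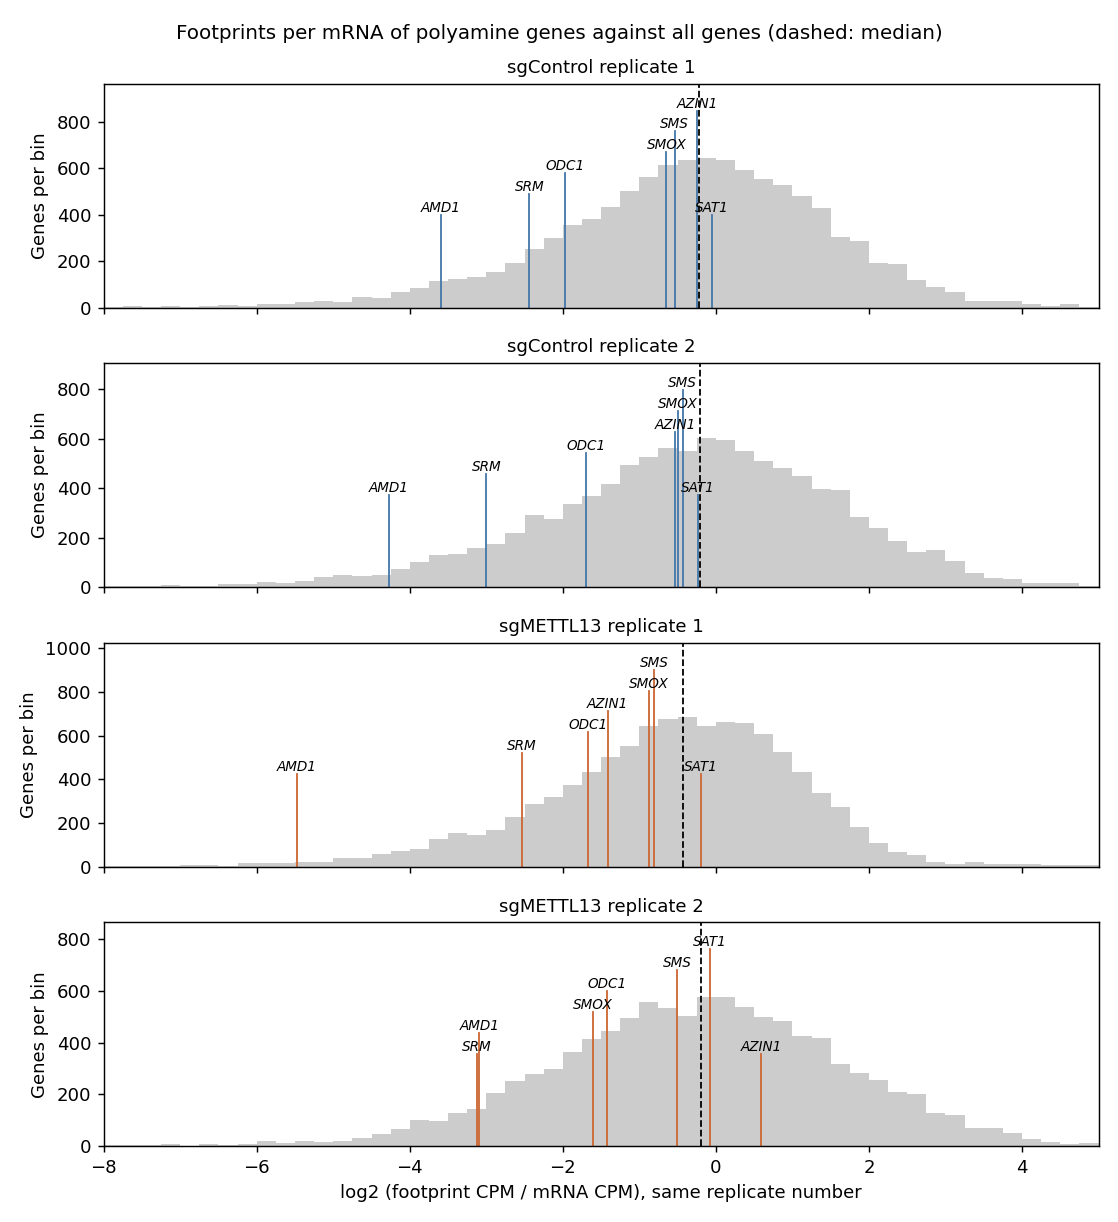
Footprints per mRNA of the 7 genes (vertical lines; blue sgControl, orange sgMETTL13) over the distribution of 10446 genes (grey bars, genes per bin of log2 ratio), one panel per same-numbered pair of libraries, with the median dashed. Line heights only separate the names. AMD1 and SRM lie in the left tail in all 4 panels, while AZIN1 is left of the median in sgMETTL13 replicate 1 and right of it in replicate 2.

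Between the arms, footprints of 1 of the 7 genes rose in sgMETTL13 and those of 2 fell: ODC1 rose, and SRM and SMOX fell. Over all 10714 genes tested 21% were called (8.94% higher, 12% lower, edgeR's quasi-likelihood test, adjusted p below 0.05). The footprint median of the 7 was -0.03 on the log2 scale, beside 0.01 over all genes. Arms were free of overlap in 5 of the 7 genes, against 64.1% of all genes. A fit with 1 library left out has 1 library in that group and measures no spread there. With 1 footprint library left out the log2 fold change of ODC1 ran from 0.47 to 0.57. That of SRM ran from -0.59 to -0.42 and that of SMOX from -0.81 to -0.64. ODC1 and SRM did not pass in all of these fits. In one model over all 8 libraries neither these 3 genes nor any other gene passed.

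ODC1, the first and rate-limiting enzyme, read 100.3 and 98.0 CPM in footprints with the control guide, against 138 and 148 CPM with the METTL13 guide. Both sgMETTL13 libraries were higher than both controls, and each pair lay close together. This was a 1.44-fold rise (log2 fold change 0.53, SE 0.132, n = 2 per arm, edgeR adjusted p = 0.0052). ODC1 mRNA read 392 and 319 CPM with the control guide, against 439 and 396 CPM with the METTL13 guide, a log2 fold change of 0.23 (SE 0.334) that did not pass. It was the 1 gene of the 7 whose arms did not overlap in mRNA, where 12% of all genes showed this. The arms lay close, and the nearest libraries were not apart beyond counting error. Exact 95% intervals for that error were 390 to 403 CPM in sgMETTL13 replicate 2 and 386 to 399 CPM in sgControl replicate 1. Footprints per mRNA of ODC1 differed by 0.31 (SE 0.307) on the log2 scale, also not past the test. Without sgMETTL13 footprint replicate 2 the footprint difference was 0.47 and missed the threshold (edgeR adjusted p = 0.12).

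AMD1, the decarboxylase that competes for S-adenosylmethionine, had footprint counts of 74 and 27 in sgControl and 50 and 79 in sgMETTL13. These are 8.95 and 4.62 CPM against 5.08 and 8.67 CPM. The higher library came first in one arm and second in the other, and the arms overlapped. The exact (Clopper-Pearson) 95% intervals, for counting error only, were 7.03 to 11.2 and 3.04 to 6.72 CPM in sgControl. In sgMETTL13 they were 3.77 to 6.70 and 6.87 to 10.8 CPM. In each arm the 2 libraries thus differed beyond counting error. The log2 fold change was -0.03 (SE 0.292), and leaving out 1 library moved it between -0.46 and 0.57. AMD1 mRNA read 108 and 89.2 CPM with the control guide, against 226 and 73.9 CPM with the METTL13 guide. The 2 sgMETTL13 RNA libraries thus lay on either side of both controls, 3.06-fold apart. The mRNA log2 fold change was 0.60 (SE 0.476), but 1.19 without sgMETTL13 RNA replicate 2 and -0.35 without replicate 1. Footprints per mRNA differed by -0.58 with SE 0.734, by 0.31 without sgMETTL13 RNA replicate 1 and by -1.19 without replicate 2. The fits without 1 of these libraries rest on 1 sgMETTL13 RNA library each.

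SRM, which joins an aminopropyl group to putrescine to give spermidine, read 38.2 and 34.2 CPM in footprints with the control guide, against 24.9 and 26.2 CPM with the METTL13 guide. Both sgMETTL13 libraries lay below both controls. SRM fell 1.42-fold (log2 fold change -0.51 with SE 0.163; edgeR adjusted p = 0.0261). Its mRNA read 207 and 273 CPM with the control guide, against 145 and 229 CPM with the METTL13 guide, with overlapping arms and a log2 fold change of -0.36 (SE 0.369). That change was -0.73 without sgMETTL13 RNA replicate 2 and 0.00061 without replicate 1. Footprints per mRNA of SRM differed by -0.13 (SE 0.411), and by 0.26 and -0.52 without those same libraries in turn. The SRM footprint call was narrow, and 7 of 11 alternatives ended it. It was lost with DESeq2 (adjusted p = 0.0665), with library totals in place of TMM (edgeR adjusted p = 0.0531), with the replicate number as a block (0.0591), in the model of all 8 libraries (0.655), and without any of 3 footprint libraries: sgControl replicate 1 (0.103), sgMETTL13 replicate 1 (0.15) or sgMETTL13 replicate 2 (0.14). Its log2 fold change stayed between -0.59 and -0.42 under all alternatives run.

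SMS, which makes spermine from spermidine, did not pass. Its footprints read 125 and 121 CPM with the control guide, against 116 and 100.4 CPM with the METTL13 guide, so the arms did not overlap but lay close. The log2 fold change was -0.18 (SE 0.134, edgeR adjusted p = 0.359). SMS mRNA read 181 and 163 CPM with the control guide, against 203 and 142 CPM with the METTL13 guide, a log2 difference of 0.00 (SE 0.351) whose sign changed with the scaling. It was -0.21 without sgMETTL13 RNA replicate 1 and 0.23 without replicate 2. Footprints per mRNA of SMS differed by -0.17 (SE 0.343), and by 0.013 and -0.38 without these libraries in turn.

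Of the enzymes that take polyamines apart, SMOX changed in footprints and SAT1 did not pass. SMOX, the spermine oxidase, read 42.9 and 48.6 CPM in footprints with the control guide, against 28.0 and 27.2 CPM with the METTL13 guide. The arms were well apart, and the 2 sgMETTL13 libraries nearly equal. SMOX fell 1.65-fold (log2 fold change -0.72 with SE 0.158; edgeR adjusted p = 0.00169), the largest footprint change of the 7 genes. The call held with DESeq2 and limma voom, and with 1 footprint library left out the log2 fold change stayed between -0.81 and -0.64. SMOX mRNA read 67.3 and 68.3 CPM with the control guide, against 51.6 and 82.7 CPM with the METTL13 guide, so that the sgMETTL13 libraries lay on either side of the controls, and the log2 fold change was -0.01 (SE 0.395). It turned from 0.35 without sgMETTL13 RNA replicate 1 to -0.40 without replicate 2. Footprints per mRNA of SMOX differed by -0.70 (SE 0.403, edgeR unadjusted p = 0.113). This difference was -1.09 without sgMETTL13 RNA replicate 1 and -0.29 without replicate 2, each resting on 1 sgMETTL13 RNA library.

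SAT1, the acetyltransferase whose mRNA and protein are known to be induced by polyamines, was nearly level. Its footprints read 64.6 and 58.8 CPM with the control guide, against 70.9 and 59.6 CPM with the METTL13 guide, with overlapping arms (log2 fold change 0.08, SE 0.147; edgeR adjusted p = 0.747). SAT1 mRNA read 66.8 and 69.4 CPM with the control guide, against 81.3 and 62.7 CPM with the METTL13 guide (log2 fold change 0.08, SE 0.376). Without sgMETTL13 RNA replicate 1 the mRNA difference was -0.051, and without replicate 2 it was 0.25. Footprints per mRNA of SAT1 differed by 0.02 (SE 0.341), and by 0.12 and -0.14 without these libraries in turn.

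AZIN1, the antizyme inhibitor, was higher in both sgMETTL13 footprint libraries but narrowly missed the threshold. It read 133 and 106 CPM with the control guide, against 153 and 154 CPM with the METTL13 guide. The controls were further from each other than sgControl replicate 1 was from either sgMETTL13 library. The log2 fold change was 0.36 (SE 0.136, edgeR adjusted p = 0.0573). Without sgControl footprint replicate 1 it was 0.54, and without sgControl footprint replicate 2 it was 0.20. With no filter on low counts it passed (edgeR adjusted p = 0.0442). AZIN1 mRNA showed the widest replicate gap of the 7 genes: 158 and 153 CPM in sgControl, against 408 and 102 CPM in sgMETTL13, which is 3.99-fold between replicates. The mRNA log2 fold change of 0.72 (SE 0.521) became 1.39 without sgMETTL13 RNA replicate 2 and -0.54 without replicate 1. Footprints per mRNA of AZIN1 turned likewise, from -0.32 (SE 0.692) to -0.99 without sgMETTL13 RNA replicate 2 and 0.88 without replicate 1. Each of these fits rests on 1 sgMETTL13 RNA library.

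**Figure D2:**
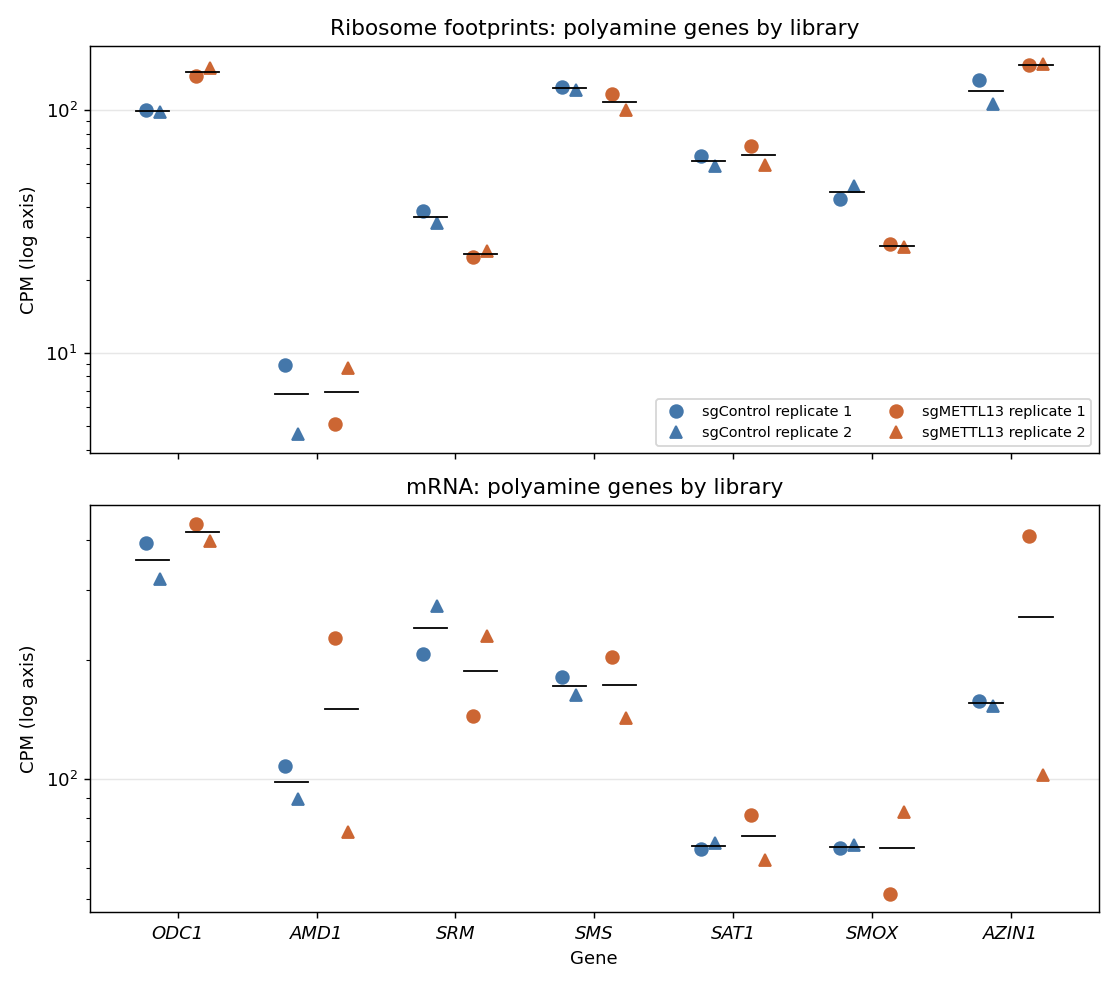
Footprint CPM (top) and mRNA CPM (bottom), on log axes, of the 7 genes in every library, with circles for replicate 1, triangles for replicate 2 and a bar at the mean of 2. Levels are not per length, so genes are not to be compared with each other. ODC1 footprints are higher and SRM and SMOX footprints lower in sgMETTL13, and AZIN1 and AMD1 mRNA split between the 2 sgMETTL13 RNA libraries.

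In mRNA and in footprints per mRNA none of the 7 genes passed with all libraries in the fit. Over all genes 0% were called in both contrasts (edgeR, 0 of 12468 in mRNA and 0 of 10446 for efficiency), with 100 and 347 at an unadjusted p below 0.05, among them none of the 7. DESeq2 called 0 and 4 genes and limma voom 0 and 0. The mRNA of the targeted gene METTL13 did not pass after adjustment either. It read 89.7 and 71.4 CPM in sgControl, against 25.2 and 35.1 CPM in sgMETTL13. Its log2 fold change was -1.42 (SE 0.406, edgeR unadjusted p = 0.00457). The METTL13 difference was -1.13 without sgMETTL13 RNA replicate 1 and -1.68 without replicate 2, each resting on 1 sgMETTL13 RNA library. A missing mRNA call therefore does not show that an mRNA was unchanged. The median efficiency difference of the 7 was -0.17, beside -0.11 over all genes, so values for single genes are to be read against a shifted centre. The footprint calls of ODC1, SRM and SMOX are thus not shown to differ from their mRNA: the test of that difference is the efficiency term, and it did not pass for any of them.

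**Figure D3:**
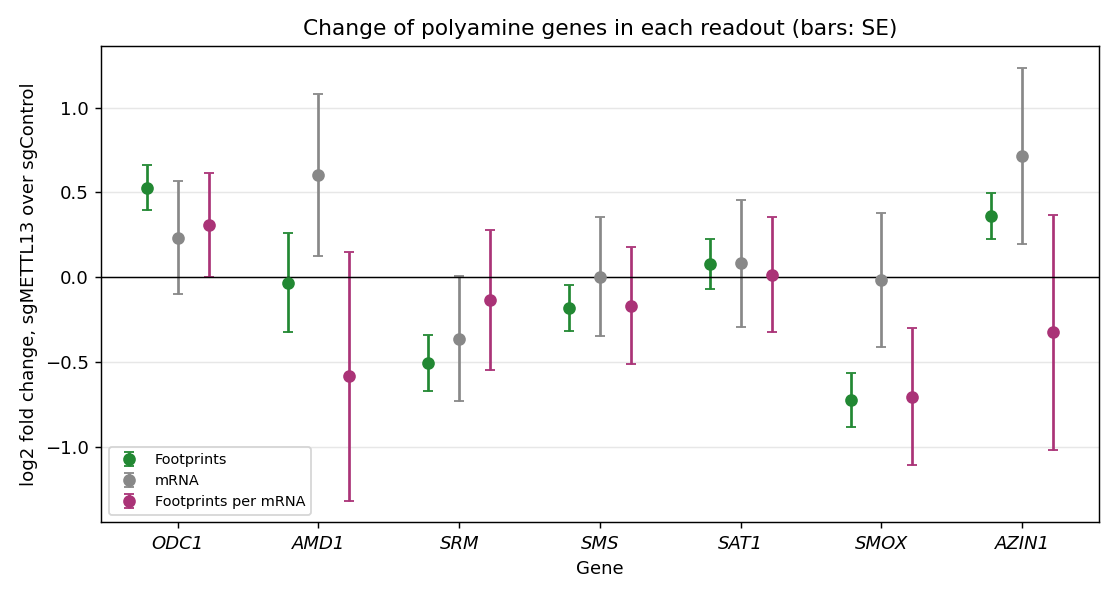
Log2 fold change of sgMETTL13 over sgControl (points, with SE as bars) for footprints (green), mRNA (grey) and footprints per mRNA (purple) of the 7 genes. Footprint bars are the shortest. ODC1 at 0.53, SRM at -0.51 and SMOX at -0.72 passed in footprints, and no gene passed in the other 2 readouts.

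The genes with profiles most like ODC1 across the 8 libraries, by Euclidean distance of log2 CPM centred within each assay, were SDC4, NDUFAB1 and PTGR1. Their distances were 0.186, 0.227 and 0.228, against a median of 1.01 over the other genes. Their footprint log2 fold changes were 0.57, 0.54 and 0.54, near that of ODC1 by the way they were picked. The profiles nearest to AMD1 were those of RRAS2, GLO1 and B3GALNT1 at 0.393, 0.421 and 0.426, against a median of 1.58. Footprint log2 fold changes of these were 0.27, 0.28 and 0.09. Their mRNA log2 fold changes were 0.81, 0.61 and 0.68, beside 0.60 for AMD1, again near by the way they were picked. The median distance was also larger for AMD1 than for ODC1, so the closeness of their neighbours is not compared.

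Among other polyamine pathway genes, 3 of 22 tested in footprints rose in sgMETTL13 and 2 fell, which is to be read against the 21% of all genes called (8.94% higher, 12% lower). The list held 26 genes, of which 23 had a row, and the 22 had a median log2 fold change of 0.10, beside 0.01 over all genes. In the supply of ornithine and S-adenosylmethionine 2 of 8 rose and none fell. The counts in this and the following small groups rest on 1 or 2 genes each and are not set apart from those shares. MAT2B, the regulatory subunit of methionine adenosyltransferase, read 32.1 and 25.5 CPM with the control guide, against 42.3 and 52.4 CPM with the METTL13 guide (log2 fold change 0.71, SE 0.166, edgeR adjusted p = 0.00314). OAT, ornithine aminotransferase, read 148 and 131 CPM and then 176 and 197 CPM (0.42, SE 0.132, edgeR adjusted p = 0.0231). Of 5 genes that salvage methylthioadenosine, the by-product of SRM and SMS, 1 fell. This was MRI1, an isomerase of that route, with 23.1 and 27.4 CPM in controls and 19.4 and 15.9 CPM under the METTL13 guide (log2 fold change -0.51, SE 0.184; edgeR adjusted p = 0.0494).

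Spermidine is also the donor for hypusine, the modified lysine of eIF5A. In that group of 4, EIF5A2 rose (log2 fold change 0.73, SE 0.257; edgeR adjusted p = 0.0424), with 7.02 and 4.45 CPM in controls and 9.04 and 10.4 CPM under the METTL13 guide. DOHH, the hydroxylase of the second step, fell by 0.57 (SE 0.188, edgeR adjusted p = 0.0297), from 24.8 and 25.6 CPM to 19.6 and 14.3 CPM. Of the 4 transport genes none passed, the smallest p being that of ATP13A3, a polyamine transporter, at a log2 fold change of 0.25 (SE 0.132). In the group of other antizyme family and interconversion genes 1 of 4 could be tested, PAOX at -0.08 (SE 0.420). In mRNA and efficiency none of the list passed with all libraries. Some passed without sgMETTL13 RNA replicate 2, a fit that leaves 1 sgMETTL13 RNA library and measures no spread among such libraries. They are not set apart from the calls over all genes in that fit. Without sgControl footprint replicate 2 the calls in this list shrank to MAT2B, and without sgMETTL13 footprint replicate 2 none remained, the edgeR adjusted p of MAT2B being 0.109 there. Of 11 alternatives run, 9 ended the call of MRI1, 7 that of EIF5A2, 5 each those of OAT and DOHH, and 2 that of MAT2B.

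**Figure D4:**
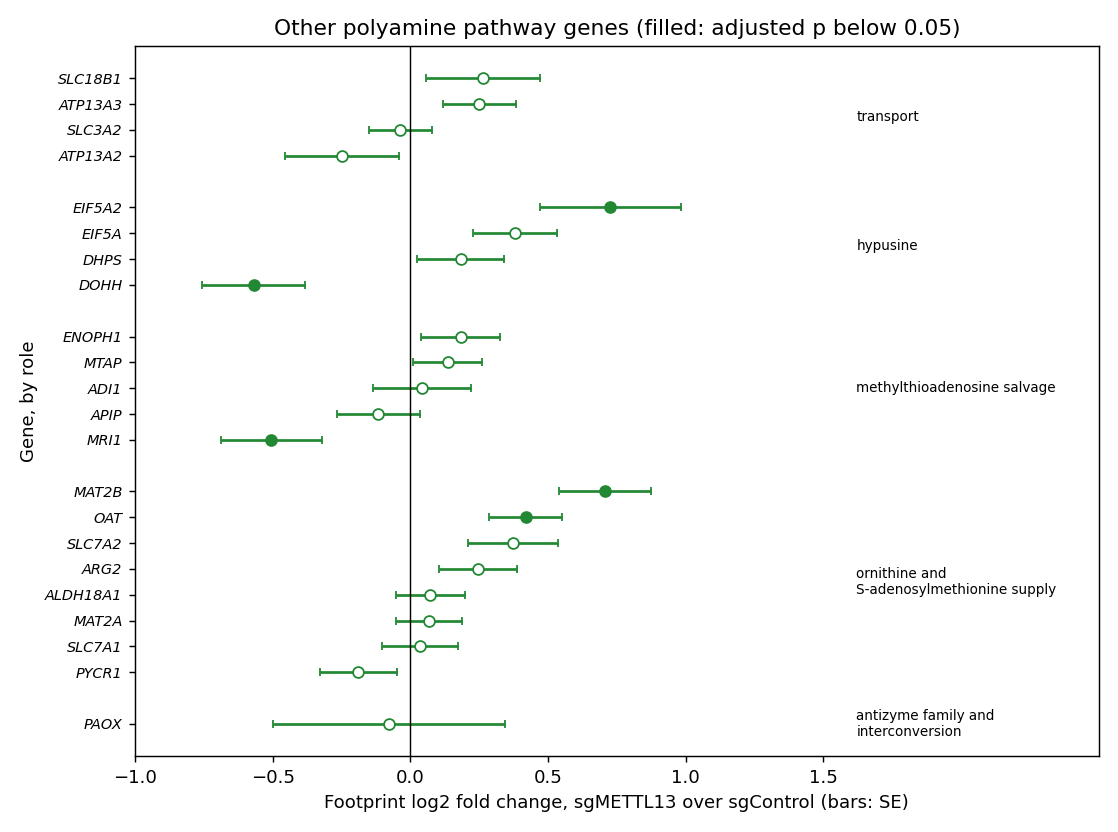
Footprint log2 fold change of sgMETTL13 over sgControl (points, SE as bars) for the 22 other pathway genes tested, grouped by role. Filled points passed at an adjusted p below 0.05: MAT2B, OAT and EIF5A2 to the right of 0, and MRI1 and DOHH to the left.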

How the data were processed

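Gene-level read counts, not normalised, were deposited by the authors as one table. The submitters' processing notes name HISAT2 2.0.4, cutadapt 1.18, Bowtie 1.2.2, UMI-tools, featureCounts and hg38. Their order, the annotation, the strand setting and the treatment of reads with several matches are not given in the sources used here. Groups followed the titles. Footprint and mRNA counts were fitted apart with edgeR 4.0.16 (R 4.3.3; TMM, default filter, quasi-likelihood F test), and efficiency as the arm-by-assay interaction over all 8 libraries. P-values were adjusted by Benjamini-Hochberg over all genes tested, at a threshold of 0.05. Standard errors are the log2 fold change divided by the root of its F statistic. The fits were also run on simulated counts, drawn with the same spread in both arms of an assay. Those counts did not include the wider spread of the sgMETTL13 RNA libraries, and their outcome is not given here. A count of 0 allows up to 3 counts, at most 0.513 CPM in the shallowest footprint library. Likeness used a pseudocount of 0.1 CPM. Named were the 9 genes, METTL13, the pathway genes past the threshold or of smallest p in a group, and the 3 nearest profiles of ODC1 and AMD1. The rule also took OAZ1 for likeness, which has no row. Members and lists were chosen with earlier results of these data known. Alternatives used DESeq2 1.42.0, limma 3.58.1 (voom), other scaling and filters, blocks and left-out libraries.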

Additional observations from a re-analysis of the deposited data

How the results depend on the processing

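The footprint calls over all genes (2245) numbered 1465 with DESeq2, 0 in one model of all 8 libraries, and 701 to 3018 with 1 library left out; the 7 genes gave 0 calls in the model of 8 and 1 to 3 with 1 library left out. No mRNA was called, but 0 to 2509 were with 1 library left out (27 without sgMETTL13 replicate 1, 2509 without replicate 2) and 0 to 2 of the 7 genes. For efficiency these were 0 to 1384 (500 and 1384) and 0 to 1, and DESeq2 called 4. Signs turned with 1 library left out. In footprints AMD1 ran from -0.46 to 0.57 and SAT1 from -0.058 to 0.20. In mRNA AMD1 ran from -0.35 to 1.19, AZIN1 from -0.54 to 1.39, SAT1 from -0.051 to 0.25, SMS from -0.21 to 0.23, SRM from -0.73 to 0.00061 and SMOX from -0.40 to 0.35. In efficiency AMD1 ran from -1.19 to 0.31, AZIN1 from -0.99 to 0.88, SAT1 from -0.14 to 0.14, SMS from -0.38 to 0.013 and SRM from -0.52 to 0.26. SMS mRNA also read -0.017 with limma voom, -0.023 with library totals, -0.016 with the replicate block and -0.013 in the model of 8. A fit with 1 library left out measures no spread in that group, so its calls are no evidence on single genes. Causes were not tested.

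With no filter on low counts, an alternative chosen after seeing the data, control percentiles of footprints per mRNA were 27.0 for ODC1, 11.7 for AMD1, 51.1 for AZIN1, 56.0 for SAT1, 49.0 for SMS, 18.3 for SRM and 47.5 for SMOX, in an unchanged order of the lowest 3; genes with few footprints enter the ranking there. The replicate numbers pair no samples by the labels: same-numbered libraries of the arms deviated with a correlation of -0.17 in footprints and 0.42 in mRNA. Between RNA and footprint libraries of the same number it was 0.16 in sgControl and 0.015 in sgMETTL13. The pairs behind the ratios and percentiles of footprints per mRNA rest on the number alone. With the replicate block 1729 genes were called in footprints, ODC1 and SMOX among them but not SRM (adjusted p = 0.0591). The block gave 0 efficiency calls, whether set by replicate number or by arm and replicate number together. Whether same-numbered RNA and footprint libraries came from the same lysate is not stated. Few AMD1 footprints, 27 to 79 per library, limit what could be seen of that gene.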
